A study of Homo sapiens with 6 samples.

Results

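The 48 autophagy and lysosome genes described here were taken from a list of symbols that covers the TFEB family, autophagy initiation, conjugation and cargo receptors, and the enzymes, membrane proteins and proton pump of the lysosome. The symbols were matched to Ensembl identifiers, and all 48 were found among the 63241 identifiers counted in each library. All 48 also passed the filter on low counts and were among the 15295 genes tested. The list was drawn up by role and uses no measured value, although earlier results of these data were known when it was written.

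RNA-seq was carried out on MDA-MB-231 cells, an established line of triple-negative breast cancer that lacks hormone receptors, with 3 libraries in each of 2 groups. The NCD group was treated with nitidine chloride (NCD), a plant alkaloid, at 5 μM for 24 h, and the DMSO group received 0.1% DMSO, the vehicle, for 24 h. Both groups were labelled wild type, and the labels name no deleted or introduced gene in either. The labels do not say whether the libraries of a group came from separate cultures, so p-values measure the spread between these libraries, which may be technical.

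Library totals ranged from 18223594 to 19410833 counts with DMSO and from 18232169 to 21629653 with NCD. NCD replicates 2 and 3 carry other line numbers in their description field, but MDA-MB-231 in their cell line field. Vimentin was abundant in every library, at a mean of 3056 CPM (counts scaled to the library's TMM-adjusted size) with DMSO and at least 2491 CPM in each NCD library, whereas ESR1, PGR and CDH1 each had at most 7 counts in any library. Other genes typical of the line were also present, and CD44, AXL and EGFR were lower with NCD, with log2 fold changes (log2FC) of -1.82, -1.10 and -2.61. EPCAM had 45 to 93 counts. Of the leukocyte and macrophage genes PTPRC had at most 1 count, LYZ 6, CD14 22 and CSF1R 29. CPM values are shares of a library, so RNA per cell was not measured. DMSO replicate 2 and NCD replicate 3 stood farthest from the other libraries of their groups, with chi-square values per degree of freedom over genes up to 15.4 and 14.4, against 2.05 between NCD replicates 1 and 2.

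Autophagy encloses cytoplasmic cargo in a double membrane, the phagophore, which closes into an autophagosome and fuses with the lysosome, where acid hydrolases degrade the contents. The ULK complex starts the process, the class III PI3-kinase complex marks the membrane with a phosphoinositide, ATG2 and ATG9 proteins supply lipid, and a conjugation system related to that of ubiquitin couples ATG8 proteins such as LC3 to the membrane. TFEB, TFE3 and MITF are related transcription factors that bind E-box sequences in the promoters of many lysosomal and autophagy genes and are held in the cytoplasm by mTORC1 when nutrients are plentiful.

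With NCD, transcripts of the ATG8 proteins MAP1LC3B and GABARAPL1, the kinase ULK1, the lipid transfer protein ATG2A and the lysosomal genes NEU1, GAA and MCOLN1 were at least 2-fold higher, by 2.10-fold to 3.24-fold. Transcripts of the conjugation enzymes ATG7, ATG10 and ATG5, of the PI3-kinase complex genes UVRAG and PIK3C3 and of the proton pump subunit ATP6V1H were at least 2-fold lower, by 2.41-fold to 13.8-fold. These 13 of 48 genes (27.1%) were differentially expressed in edgeR's quasi-likelihood test, with |log2FC| above 1 and a p adjusted by Benjamini-Hochberg below 0.05. Over all tested genes that share was 31.0%, with 13.5% higher and 17.5% lower, against 14.6% and 12.5% of the 48. The shares of the list were thus near those of all tested genes.

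Without a threshold on fold change, 34 of the 48 genes (70.8%) passed an adjusted p of 0.05, against 69.3% of all tested genes. Of these, 24 were higher with NCD and 10 (20.8%) were lower, where the shares of all tested genes were 35.3% and 34.1%. The other 14 did not pass. The median log2FC of the list was 0.20, with values from -3.79 to 1.70, and the median over all tested genes was 0.04. In 24 of the 48 genes every NCD library lay above every DMSO library, and in 12 every NCD library lay below, against 37.2% and 35.3% of all tested genes.

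**Figure D1:**
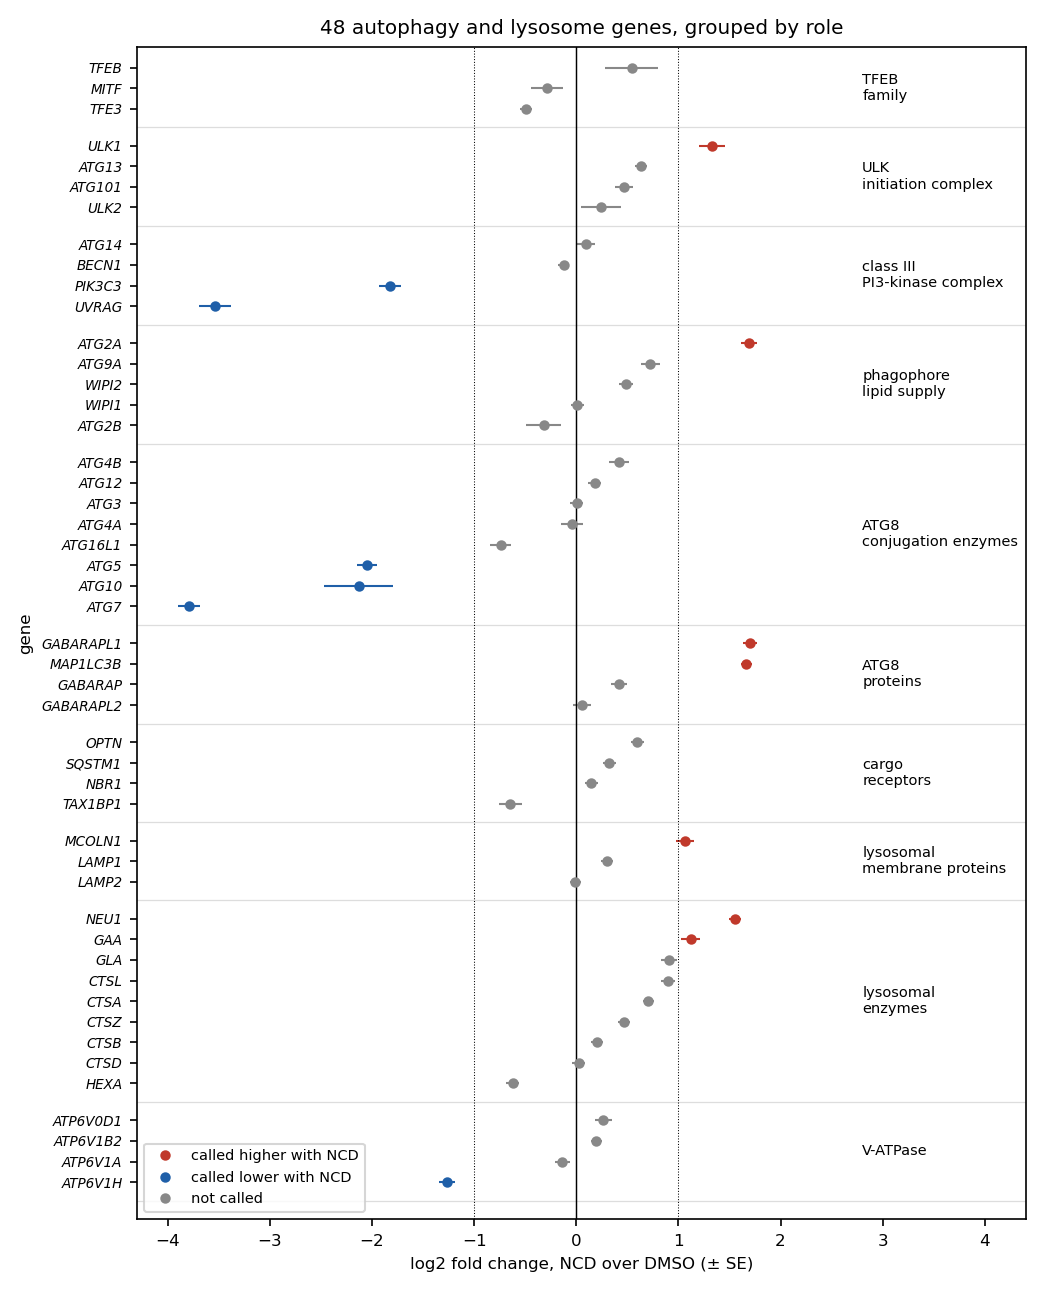
The horizontal axis gives the log2 fold change of NCD over DMSO with its standard error (bars) for the 48 genes, which are grouped by role on the vertical axis, and dotted lines mark 2-fold. The 7 genes called higher fall in 5 of the roles, while the 6 called lower are PIK3C3, UVRAG, ATG5, ATG7, ATG10 and ATP6V1H.

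The level of a role, taken as the sum of its genes' CPM, is given here as a description, with no test. A sum mostly follows its most abundant genes and does not give the change of each gene. Among the ATG8 proteins this was MAP1LC3B, with means of 220.5 CPM with DMSO and 699.5 CPM with NCD. Among the conjugation enzymes these were ATG3 (116.5 and 116.8 CPM) and ATG12 (71.8 and 81.4 CPM). Transcripts of the 4 ATG8 proteins together went from 516 ± 28.3 to 1135 ± 14.5 CPM (SD, n = 3), a ratio of 2.20. The 4 ULK complex genes went from 117 ± 3.76 to 182 ± 5.19 CPM and the 5 lipid supply genes from 219 ± 16.7 to 332 ± 9.03 CPM, ratios of 1.55 and 1.52. Both sums were higher in every NCD library than in any DMSO library. The 9 lysosomal enzymes went from 1297 ± 11.96 to 1726 ± 62.7 CPM, a ratio of 1.33. In the other direction, the 4 PI3-kinase complex genes went from 275 ± 8.44 to 189 ± 6.52 CPM and the 8 conjugation enzymes from 330 ± 13.5 to 263 ± 1.75 CPM, ratios of 0.687 and 0.798. The sum over the 4 proton pump subunits was 432 ± 13.7 CPM with DMSO and 447 ± 11.9 CPM with NCD, and its libraries overlapped between the groups.

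The promoters of the list were searched for the E-box CACGTG, the core of the motif that the TFEB family binds. Of the 48 genes, 41 had a window in the RefSeq table for GRCh38.p14, which runs from 250 bases before to 50 bases after the gene start. CACGTG, which reads the same on both strands, was present in 9 of the 41 windows and in 7.43% of 27305 windows genome-wide, a difference given as a description. The 9 genes were GAA, MCOLN1, NEU1, CTSA, LAMP1, ATP6V0D1, CTSD, ATG3 and ATG14. The longer palindrome TCACGTGA, in which the same core lies, was present in 6 of 41 windows and in 1.04% of all windows. The genome-wide windows include genes that were not tested here, whereas all 41 listed genes were tested. Among tested genes with a window, 1101 held CACGTG and 9958 did not, and 211 held TCACGTGA and 10848 did not. The following 30-base windows are shown because they belong to the 3 differentially expressed genes with the E-box (GAA, MCOLN1 and NEU1) and to 4 genes with TCACGTGA that differed less. CACGTG is in capitals, each sequence runs 5′ to 3′ on the gene's strand, and the sequences are from RefSeq.
GAA, chr17:80101493-80101522, plus strand: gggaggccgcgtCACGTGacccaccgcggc
GAA, chr17:80101538-80101567, plus strand: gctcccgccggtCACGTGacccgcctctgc
MCOLN1, chr19:7522571-7522600, plus strand: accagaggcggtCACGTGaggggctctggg
MCOLN1, chr19:7522598-7522627, plus strand: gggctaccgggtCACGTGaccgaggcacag
NEU1, chr6:31862930-31862959, minus strand: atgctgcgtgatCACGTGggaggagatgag
CTSA, chr20:45891298-45891327, plus strand: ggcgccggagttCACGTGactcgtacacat
LAMP1, chr13:113297199-113297228, plus strand: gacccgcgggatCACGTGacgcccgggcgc
ATP6V0D1, chr16:67481199-67481228, minus strand: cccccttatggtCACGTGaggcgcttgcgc
ATG3, chr3:112561940-112561969, minus strand: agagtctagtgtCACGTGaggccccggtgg

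The motif starts 76 and 31 bases before the gene start in the 2 windows of GAA (positions -76 and -31), at -41 and -14 in MCOLN1, at -126 in NEU1, at -25 in CTSA, at -28 in LAMP1, at -59 in ATP6V0D1 and 5 bases past the start in ATG3. Other CACGTG sites of these genes are not shown. They start at -192, -176, -159, -142 and -1 in LAMP1, at -42 in CTSA and at -18 in ATG3. Of the 9 genes with CACGTG, 3 were differentially expressed and higher with NCD and 0 were lower. In all, 6 of the 9 (GAA, MCOLN1, NEU1, CTSA, LAMP1 and ATP6V0D1) passed the adjusted p in edgeR's quasi-likelihood test at any fold, each of them higher. The other 3 had log2FC values of 0.03 (CTSD), 0.10 (ATG14) and 0.003 (ATG3). Among the 32 genes whose window lacked the motif, 4 were differentially expressed and higher and 4 were lower, and at any fold 16 rose and 7 fell. The 4 higher were ULK1, ATG2A, MAP1LC3B and GABARAPL1 and the 4 lower were PIK3C3, ATG5, ATG7 and ATG10. Those 4 lower genes each span over 100 kb, and each of the 9 genes with CACGTG spans less. The part of span in this split was not tested. Outside the split are the 7 genes without a window, UVRAG, ATP6V1H, HEXA, ATP6V1B2, CTSB, LAMP2 and ATP6V1A. Of these UVRAG and ATP6V1H were differentially expressed and lower. At any fold HEXA was also lower, and ATP6V1B2 and CTSB were higher. Over all tested genes with a window, 12.4% of the 1101 with CACGTG and 12.3% of the 9958 without it were differentially expressed and higher, and 37.9% and 35.6% were higher at any fold. In the other direction 198 of the 1101 and 1802 of the 9958 were differentially expressed and lower, and 35.3% and 36.5% were lower at any fold.

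The TFEB family showed no common direction. TFEB itself was scarce, with 1.39, 1.98 and 1.64 CPM in the DMSO libraries and 2.75, 2.85 and 1.73 CPM in the NCD libraries. NCD replicates 1 and 2 lay above all DMSO libraries, but NCD replicate 3 lay among them, and the log2FC of 0.54 did not pass (SE 0.26, adjusted p = 0.0925 in edgeR's quasi-likelihood test). TFEB had 23 to 63 counts per library, so its change was poorly resolved at this depth. Without NCD replicate 3 its log2FC was 0.72 and passed the adjusted p. TFE3 had 83.3, 86.7 and 89.4 CPM with DMSO and 62.7, 59.6 and 62.2 CPM with NCD. Its groups did not overlap, and it fell by 0.49 on the log2 scale (SE 0.06, adjusted p = 8.53e-05 in edgeR's quasi-likelihood test). MITF had 5.61, 4.98 and 4.61 CPM with DMSO and 4.46, 3.52 and 4.43 CPM with NCD, and its log2FC of -0.29 did not pass (adjusted p = 0.135 in the same test), although all NCD libraries lay below all DMSO libraries. Per kilobase of annotated exon, TFE3 stood at 20.2 ± 0.72 CPM with DMSO (SD, n = 3), far above MITF at 0.71 ± 0.07 and TFEB at 0.30 ± 0.05. This order was the same with NCD at 14.4 ± 0.40, 0.58 ± 0.07 and 0.43 ± 0.11, where MITF and TFEB overlapped in mean ± SD.

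ULK1, the kinase that starts autophagosome formation, had 7.11, 7.81 and 9.21 CPM with DMSO and 20.8, 21.8 and 18.2 CPM with NCD. Every NCD library was above every DMSO library, and the gene was 2.51-fold higher (log2FC 1.33, SE 0.12, adjusted p = 1.37e-05 in edgeR's quasi-likelihood test). Its partners ATG13 and ATG101, which hold the kinase complex together, also rose, with log2FC values of 0.64 and 0.47 and adjusted p of 1.27e-05 and 0.00127 in that test. ULK2, the related kinase, had a log2FC of 0.24 with overlapping groups and did not pass (adjusted p = 0.289). So 3 of the 4 genes of the complex rose, and 1 of them by over 2-fold. Of all tested genes 35.3% were higher at any fold and 13.5% by over 2-fold.

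In the class III PI3-kinase complex, 2 of 4 genes fell and the other 2 did not pass, where 34.1% of all tested genes fell at any fold. PIK3C3, the catalytic subunit also known as VPS34, had 75.6, 81.9 and 70.3 CPM with DMSO and 19.4, 20.2 and 24.6 CPM with NCD. UVRAG, the subunit of the form of the complex that acts in endosome and autophagosome maturation, had 25.9, 26.0 and 23.1 CPM with DMSO and 2.71, 2.02 and 1.68 CPM with NCD. In both genes the groups were far apart, with a fall of 1.83 on the log2 scale for PIK3C3 (SE 0.11, adjusted p = 6.86e-07) and of 3.54 for UVRAG (SE 0.16, adjusted p = 1.5e-07, both in edgeR's quasi-likelihood test). UVRAG was 11.6-fold lower and had 36 to 62 counts in an NCD library, against 421 to 459 in a DMSO library. BECN1, the scaffold of the complex, had 142, 136 and 135 CPM with DMSO and 130, 124 and 125 CPM with NCD. Its NCD libraries all lay below, but the log2FC of -0.12 did not pass (adjusted p = 0.0766). When libraries were scaled by their totals its log2FC was 0.08. ATG14, which directs the complex to the site of phagophore formation, had a log2FC of 0.10 (adjusted p = 0.348) with overlapping groups.

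Among the genes that supply lipid to the phagophore or read its phosphoinositide, ATG2A changed most. ATG2A, a lipid transfer protein, had 30.2, 35.1 and 29.98 CPM with DMSO and 102, 108 and 97.6 CPM with NCD. It was 3.23-fold higher in NCD with no overlap (log2FC 1.69, SE 0.08, adjusted p = 2.43e-07 in edgeR's quasi-likelihood test). Its paralog ATG2B had a log2FC of -0.32 that did not pass (adjusted p = 0.123), with 35.3, 49.9 and 36.6 CPM in DMSO against 29.7, 27.6 and 40.2 CPM in NCD, where the highest DMSO value was replicate 2 and the highest NCD value replicate 3. Without NCD replicate 3 its log2FC was -0.52 and passed. ATG9A, a lipid scramblase carried on vesicles, and WIPI2, which binds the phosphoinositide and recruits ATG16L1, rose with log2FC values of 0.73 and 0.49 (adjusted p = 0.00012 and 0.00026 in that test). WIPI1, the related protein, had 43.3 ± 1.62 CPM with DMSO and 43.7 ± 0.97 CPM with NCD (SD, n = 3), and its log2FC of 0.01 had a standard error of 0.07.

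Of the 8 conjugation genes 3 fell by over 2-fold, where 17.5% of all tested genes did. Among the 3 was ATG7, the largest fall of the list. ATG7, the E1-like enzyme that activates both ATG8 proteins and ATG12, had 41.9, 41.9 and 39.3 CPM with DMSO and 2.75, 3.42 and 2.75 CPM with NCD. It was 13.8-fold lower with NCD, from 696 to 740 counts per DMSO library to 59 to 66 counts per NCD library (log2FC -3.79, SE 0.11, adjusted p = 2.07e-08 in edgeR's quasi-likelihood test). ATG5, the protein that ATG12 is joined to, had 51.0, 42.9 and 44.1 CPM with DMSO and 11.4, 10.1 and 11.7 CPM with NCD, and was 4.14-fold lower (log2FC -2.05, SE 0.10, adjusted p = 2.46e-07). ATG10, the E2-like enzyme that joins ATG12 to ATG5, had 3.07, 3.79 and 5.37 CPM with DMSO and 0.57, 0.83 and 1.40 CPM with NCD, and was 4.38-fold lower (log2FC -2.13, SE 0.34, adjusted p = 0.000442). None of the 3 genes had overlapping groups. ATG10 is the least certain of them, with 13 to 98 counts per library, and it shares 374 exon bases on the opposite strand with RPS23, a ribosomal protein gene of up to 37060 counts. ATG7 shares 1596 exon bases in the same way with VGLL4 (up to 1024 counts). MAP1LC3B, MCOLN1, BECN1, ATG2B, ATG3, ATG4B, ATG12 and SQSTM1 share from 6 (MCOLN1) to 419 (ATG2B) exon bases with a gene of 515 (FBXO31, beside MAP1LC3B) to 6616 counts (PSME3, beside BECN1). The sources used here do not say whether counting used strand, so reads of the pairs on opposite strands cannot be told apart. MCOLN1 and its partner PNPLA6 lie on the same strand, where strand would not separate their reads. Also on the same strand, ATG9A shares 1833 exon bases with a gene of up to 99.2 counts, and CTSD 1304 with a gene of up to 228 counts.

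ATG16L1, which carries the ATG12-ATG5 conjugate to the membrane, fell with the others but by less than 2-fold. It had 17.7, 17.3 and 17.5 CPM with DMSO and 10.1, 9.62 and 11.6 CPM with NCD (log2FC -0.74, SE 0.10, adjusted p = 0.000158 in edgeR's quasi-likelihood test). ATG12, the ubiquitin-like protein, and ATG4B, the protease that primes and recycles ATG8 proteins, rose slightly, with log2FC values of 0.18 and 0.41 and adjusted p of 0.0286 and 0.00449. The call of ATG12 was lost when any one library other than DMSO replicate 2 was left out. ATG3, the E2-like enzyme for ATG8 proteins, had 117 ± 7.90 CPM with DMSO and 117 ± 4.02 CPM with NCD (SD, n = 3). ATG4A, a second protease, had 11.9 ± 1.27 and 11.5 ± 0.26 CPM. The log2FC values of ATG3 and ATG4A, 0.003 and -0.04, were within their standard errors of 0.07 and 0.11. So 4 of the 8 conjugation genes fell, 2 rose and 2 did not pass, where 34.1% of all tested genes fell and 35.3% rose at any fold.

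In contrast, transcripts of 3 of the 4 ATG8 proteins that these enzymes act on rose, where 35.3% of all tested genes rose at any fold. MAP1LC3B, which encodes the autophagosome marker LC3B, had 227, 215 and 219.5 CPM with DMSO and 695, 691 and 713 CPM with NCD. GABARAPL1 had 31.6, 33.1 and 32.8 CPM with DMSO and 109, 108 and 99.0 CPM with NCD. The libraries of the 2 groups were widely separated in both, at 3.17-fold for MAP1LC3B (log2FC 1.67, SE 0.06, adjusted p = 3.48e-08) and 3.24-fold for GABARAPL1 (log2FC 1.70, SE 0.07, adjusted p = 7.69e-08, both in edgeR's quasi-likelihood test). GABARAP had 210.4, 177 and 194.5 CPM with DMSO and 267, 268 and 239.6 CPM with NCD, and rose by less (log2FC 0.41, SE 0.08, adjusted p = 0.00124). GABARAPL2 had 74.9, 61.8 and 70.4 CPM with DMSO and 71.1, 77.4 and 66.9 CPM with NCD, with overlapping groups (log2FC 0.06, adjusted p = 0.588).

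The order of the ATG8 transcripts also changed, when levels are given per kilobase of annotated exon. With DMSO, GABARAP was highest at 85.6 ± 7.41 CPM per kilobase (SD, n = 3), followed by MAP1LC3B at 41.5 ± 1.08, GABARAPL2 at 22.8 ± 2.20 and GABARAPL1 at 7.96 ± 0.20. With NCD, MAP1LC3B at 132 ± 2.20 lay above GABARAP at 114 ± 7.15. GABARAPL1 at 25.8 ± 1.36 and GABARAPL2 at 23.7 ± 1.73 overlapped in mean ± SD. The ranges of the libraries, as mean ± SD, were apart for each pair of neighbours with DMSO and for MAP1LC3B and GABARAP with NCD. In CPM not divided by length, MAP1LC3B already lay above GABARAP with DMSO, at means of 220.5 and 193.9. Their exchange of places thus depends on the annotated exon lengths, 5.31 and 2.27 kb, which need not be those of the transcripts present. MAP1LC3B2, a near-identical copy of MAP1LC3B on another chromosome, had at most 120 counts per library, against 3761 to 15903 for MAP1LC3B, and reads of the pair may have been divided between them.

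**Figure D2:**
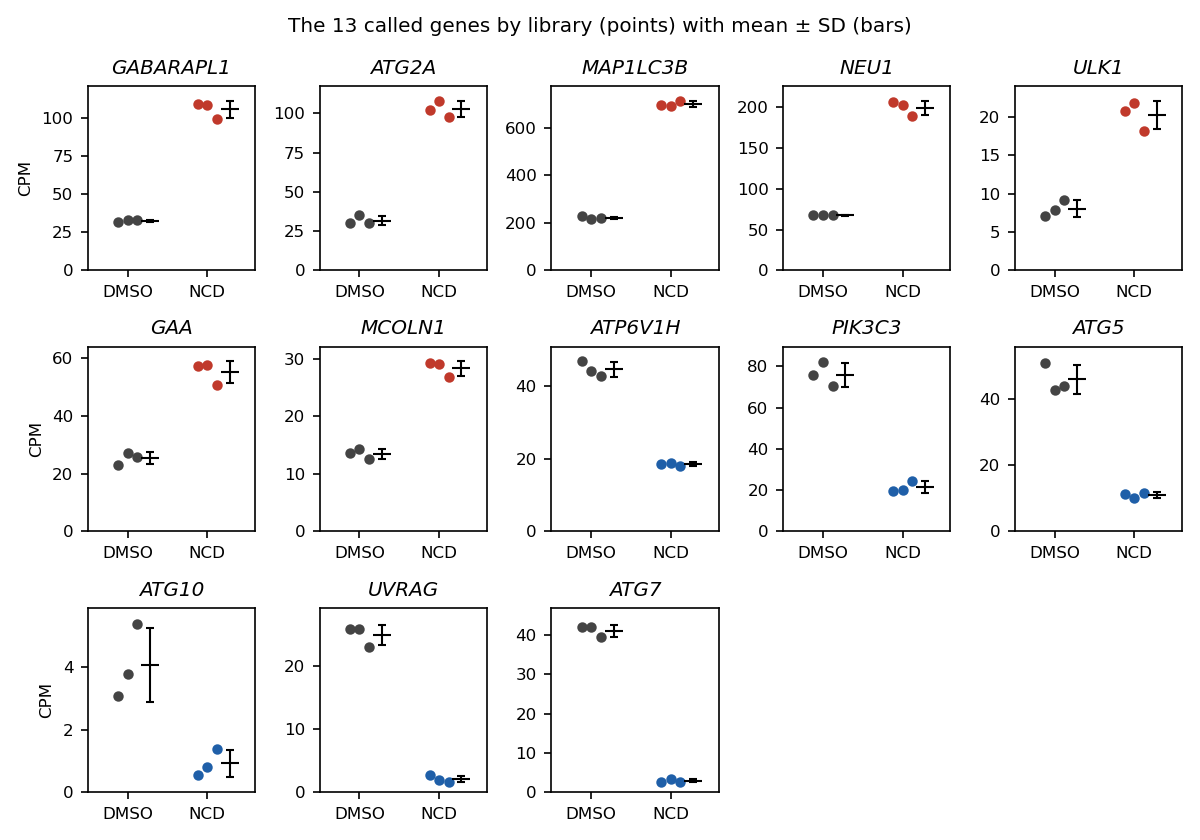
Each panel shows the CPM of a differentially expressed gene in the 3 DMSO and the 3 NCD libraries (points), with the mean and SD of each group (bars) and a vertical axis that starts at 0. In all 13 panels the NCD libraries lie apart from the DMSO libraries, above them from GABARAPL1 to MCOLN1 and below them from ATP6V1H to ATG7.

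The 4 cargo receptors, which link ubiquitinated cargo to ATG8 proteins, differed by less than 2-fold. SQSTM1, which encodes p62, had 10375 to 17802 counts per library, or 625, 593 and 599 CPM with DMSO and 778, 776 and 723 CPM with NCD. Every NCD library lay above every DMSO library, and the gene rose (log2FC 0.32, SE 0.06, adjusted p = 0.00111 in edgeR's quasi-likelihood test). OPTN had 134, 142 and 127 CPM with DMSO and 206, 192 and 211 CPM with NCD, and rose (log2FC 0.60, adjusted p = 3.56e-05). TAX1BP1 fell, from 137, 152 and 132 CPM to 80.8, 80.6 and 108 CPM, with NCD replicate 3 nearer to DMSO than the other NCD libraries (log2FC -0.64, SE 0.12, adjusted p = 0.000923). NBR1 had a log2FC of 0.15 with overlapping groups and did not pass (adjusted p = 0.0617).

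Of the lysosomal membrane proteins, MCOLN1, the lysosomal calcium channel also called TRPML1, rose most. It had 13.7, 14.3 and 12.6 CPM with DMSO and 29.2, 29.02 and 26.9 CPM with NCD, so that the groups did not overlap (2.10-fold, log2FC 1.07, SE 0.09, adjusted p = 5.79e-06 in edgeR's quasi-likelihood test). Without DMSO replicate 3 its log2FC was 0.99 and it no longer passed 2-fold. LAMP1, an abundant glycoprotein of the lysosomal membrane, rose from 374 ± 11.7 to 461 ± 17.0 CPM (SD, n = 3; log2FC 0.30, adjusted p = 0.00134). LAMP2, its relative that takes part in fusion and chaperone-mediated autophagy, had 201 ± 8.94 CPM with DMSO and 199.8 ± 1.98 CPM with NCD, a log2FC of -0.01 with a standard error of 0.06. Scaling by library totals instead gave LAMP2 a log2FC of 0.19.

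Of the transcripts of the 9 lysosomal enzymes, 7 rose, 1 fell and 1 did not pass. At any fold 35.3% of all tested genes rose and 34.1% fell. Of those that span up to 100 kb, as all 9 do, 42.3% rose and 24.3% fell. NEU1, the lysosomal sialidase, had 67.3, 67.6 and 68.2 CPM with DMSO and 206, 202 and 189 CPM with NCD. It was 2.94-fold higher (log2FC 1.56, SE 0.06, adjusted p = 5.99e-08 in edgeR's quasi-likelihood test). GAA, the acid α-glucosidase that breaks down glycogen, had 23.1, 27.2 and 25.7 CPM with DMSO and 57.1, 57.4 and 50.6 CPM with NCD, and was 2.17-fold higher (log2FC 1.12, SE 0.09, adjusted p = 4.7e-06). Neither gene had overlapping groups, and NCD replicate 3 was the lowest NCD library in both. GLA, the α-galactosidase A that clears globotriaosylceramide, and the cysteine protease CTSL stood just under 2-fold, at log2FC values of 0.91 and 0.90 (adjusted p = 7.45e-06 and 3.53e-06). When libraries were scaled by their totals both passed 2-fold, at 1.11 and 1.10.

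CTSA, the protective protein that binds and stabilises NEU1, rose from 170.2 ± 5.92 to 278 ± 7.49 CPM (SD, n = 3; log2FC 0.71, adjusted p = 4.41e-06 in edgeR's quasi-likelihood test). The proteases CTSZ and CTSB rose by less, with log2FC values of 0.47 and 0.20 (adjusted p = 0.000125 and 0.0104), and CTSB did not pass when DMSO replicate 1 or 3 or NCD replicate 1 or 2 was left out. CTSD, the aspartic protease and the highest of the 9 enzymes per kilobase of exon with 146 CPM with DMSO, had 455 ± 28.1 CPM with DMSO and 463 ± 13.04 CPM with NCD, and its log2FC of 0.03 did not pass (adjusted p = 0.728). HEXA, the α subunit of β-hexosaminidase, had 143, 125 and 136.5 CPM with DMSO and 88.6, 90.2 and 84.0 CPM with NCD. Its groups did not overlap and it fell by 0.62 on the log2 scale (SE 0.07, adjusted p = 3.37e-05).

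The V-ATPase pumps protons into the lysosome, and of its 4 listed subunits 1 fell by over 2-fold, where 17.5% of all tested genes did. ATP6V1H, a regulatory subunit of the cytoplasmic V1 sector, had 46.8, 44.1 and 42.5 CPM with DMSO and 18.6, 18.9 and 17.95 CPM with NCD. It was 2.41-fold lower with no overlap between the groups (log2FC -1.27, SE 0.07, adjusted p = 7.45e-07 in edgeR's quasi-likelihood test). ATP6V1B2, a subunit of the catalytic head, and ATP6V0D1, which joins the stalk to the membrane ring, rose by 0.20 and 0.27 on the log2 scale (adjusted p = 0.0122 and 0.0189). Both lost this call without DMSO replicate 1, DMSO replicate 3 or NCD replicate 1, and ATP6V0D1 also without NCD replicate 2. ATP6V1A, the catalytic subunit, had a log2FC of -0.13 that did not pass (adjusted p = 0.11), and of 0.06 when libraries were scaled by their totals.

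**Figure D3:**
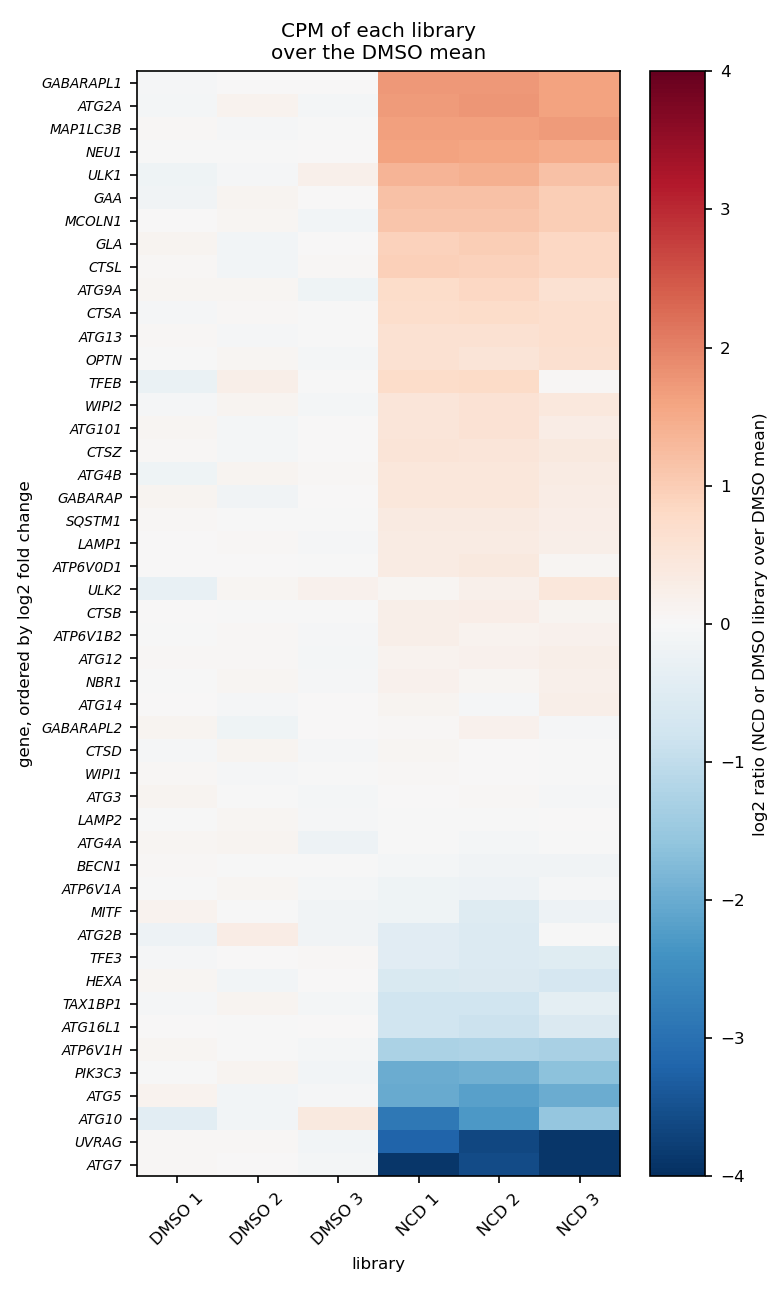
Rows are the 48 genes in order of log2 fold change and columns the 6 libraries, and the colour gives the log2 ratio of each library's CPM to the mean of the DMSO libraries. The NCD columns are red in the upper rows and blue in the lower rows, and NCD 3 is the paler of the NCD columns for TFEB, ULK1, ATG2B and TAX1BP1.

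The genes that fell by over 2-fold were long ones. In all, 8 of the 48 genes span more than 100 kb of the genome in GENCODE release 29 (GRCh38), from 105 kb for TAX1BP1 (chr7:27739331-27844564) to 328 kb for UVRAG (chr11:75815167-76143195). The others are ATP6V1H (chr8:53715557-53843558), PIK3C3 (chr18:41955206-42087830), MITF (chr3:69739435-69968337), ATG5 (chr6:106045423-106325791), ATG7 (chr3:11272309-11557665) and ATG10 (chr5:81972025-82276857). All 8 had every NCD library below every DMSO library, as had 35.3% of all tested genes. That share was not taken for long genes alone. Of the 8, 6 were differentially expressed and lower (75.0%), and 0 were higher. The 6 were PIK3C3, UVRAG, ATG5, ATG7, ATG10 and ATP6V1H, which are all the genes of the list that fell by over 2-fold.

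Long genes at large moved the same way. Of the 2615 tested genes that span over 100 kb, 67.0% were differentially expressed and lower and 1.91% higher, with a median log2FC of -1.46, against -1.94 for the 8. At any fold 82.6% of these genes were lower and 4.82% higher, and of the 8 all but MITF were lower. Of the 12077 shorter genes, 7.01% were lower and 15.8% higher, with a median of 0.19. Among the 40 shorter genes of the list 0 were lower, 7 were higher (17.5%) and the median log2FC was 0.31. At any fold 24 of these 40 rose (60.0%) and 3 fell, which were TFE3, ATG16L1 and HEXA, against 42.3% and 24.3% of the shorter genes at large. The limit of 100 kb was chosen after the values were seen, and the part of gene span in each gene's change was not tested.

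**Figure D4:**
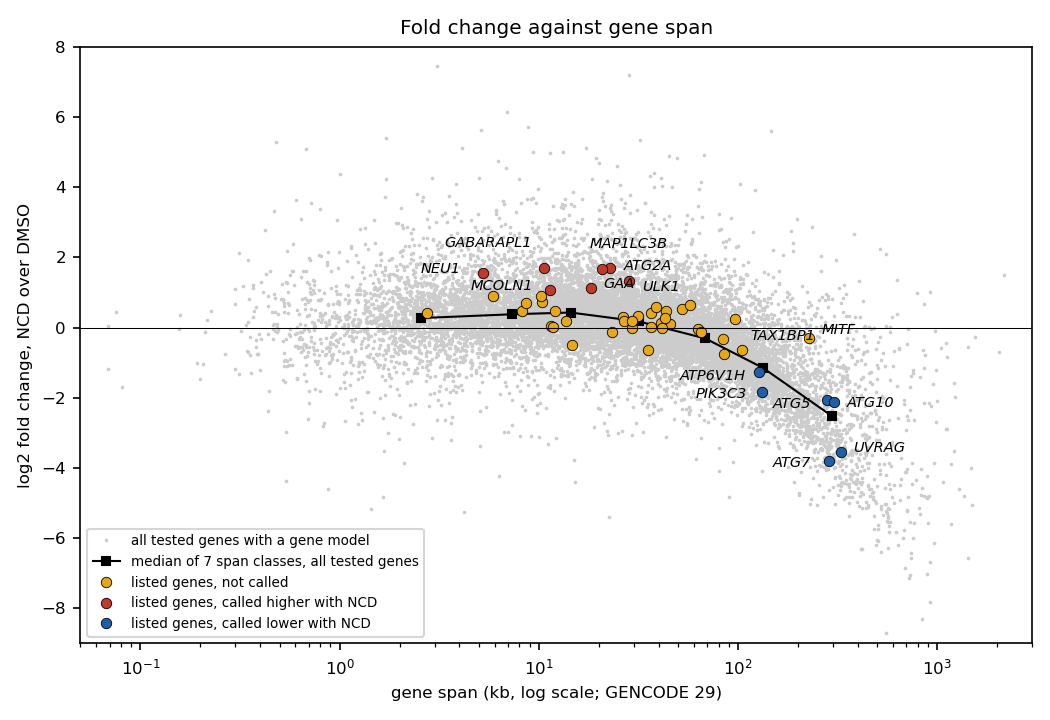
The horizontal axis gives the span of a gene in kb on a log scale and the vertical axis its log2 fold change, NCD over DMSO, with all tested genes that have a gene model in grey, the 48 listed genes in colour and squares for the median of 7 span classes. The class medians run from 0.27 under 5 kb to -2.52 above 200 kb, and the 6 genes called lower lie at the right.

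The small changes of the list moved with the scaling of the libraries. With library totals in place of TMM factors, the median over all genes shifted by 0.20 on the log2 scale and the genes called over all tested genes went from 2067 higher and 2669 lower to 2793 higher and 2181 lower. The listed genes then gave 9 higher and 6 lower at 2-fold, and 32 higher and 10 lower at any fold, where 44.6% of all tested genes were higher and 27.3% lower at any fold. With ribosomal protein genes as the reference, 18 of the listed genes were higher at any fold, and ATG12, ATG4B, ATP6V0D1, ATP6V1B2, CTSB and LAMP1 no longer passed. Over all 15295 tested genes 4159 (27.2%) were then higher and 4287 lower at any fold. The 6 genes lower by over 2-fold were called under every scaling tried.

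To place the list in its pathway, 146 other genes of autophagy, the lysosome and mTORC1 regulation were examined by the same test. Of the 143 that could be tested, 20 were differentially expressed and higher with NCD (14.0%) and 14 lower (9.79%), and at any fold 74 rose (51.7%) and 35 fell (24.5%). Over all tested genes these shares were 13.5% and 17.5%, and 35.3% and 34.1% at any fold. The median log2FC was 0.27. Scaled by library totals, 30 of these genes were called higher and 11 lower, where 18.3% and 14.3% of all tested genes were.

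Among the 17 other genes of autophagosome formation tested, 5 were called higher (29.4%) and 3 lower (17.6%), against 13.5% and 17.5% of all tested genes. The 5 were the LC3 genes MAP1LC3A, MAP1LC3C and MAP1LC3B2, WDR45, a relative of the WIPI proteins, and ZFYVE1, which marks the membrane where autophagosomes form. WDR45 fell under 2-fold without DMSO replicate 2 (log2FC 0.998) or 3 (0.988) or NCD replicate 1 (0.96). MAP1LC3A had 0.54, 0.34 and 0.44 CPM with DMSO and 2.58, 3.31 and 2.61 CPM with NCD (log2FC 2.67, adjusted p = 2.46e-05 in edgeR's quasi-likelihood test), and with NCD its level per kilobase of exon was 1.61 ± 0.24 CPM, below the 132 of MAP1LC3B. The 3 lower were AMBRA1, a regulator of ULK1 and BECN1 (log2FC -1.76), VMP1, an endoplasmic reticulum scramblase (log2FC -1.07, and -0.87 with library totals), and RB1CC1, which encodes the ULK complex subunit FIP200. RB1CC1 had 23.7, 48.2 and 37.8 CPM with DMSO and 9.48, 9.37 and 30.5 CPM with NCD, so its groups overlapped. Its log2FC of -1.15 (SE 0.44, adjusted p = 0.0432) no longer passed with DESeq2, with library totals, with ribosomal protein genes as the reference, or when DMSO replicate 2 or 3 or NCD replicate 1 or 2 was left out.

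Of the 15 other cargo and organelle receptors tested 0 were called higher by edgeR or DESeq2 (TOLLIP, CALCOCO2 and PINK1 were with library totals) and 2 were called lower, while at any fold 9 rose and 3 fell. WDFY3, a large scaffold of aggregate clearance, went from 53.3, 68.6 and 54.2 CPM to 6.99, 8.23 and 8.63 CPM (log2FC -2.89, SE 0.13, adjusted p = 1.51e-07 in edgeR's quasi-likelihood test). BNIP3, a mitochondrial receptor induced by hypoxia, went from 508, 452 and 462 CPM to 202, 213 and 200.2 CPM (log2FC -1.21, SE 0.07, adjusted p = 4.41e-07). BNIP3 spans 15.6 kb and was the only one of the 120 wider-list genes up to 100 kb called lower. In fusion with the lysosome, VPS18, a subunit of the HOPS and CORVET tethers, was called higher (log2FC 1.20), and the HOPS subunit VPS41 and the tethering factor EPG5 lower (log2FC -1.87 and -2.02). These were 7.14% and 14.3% of the 14 fusion genes tested, against 13.5% and 17.5% of all tested genes.

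Of the 37 other hydrolases and cofactors 7 were called higher (18.9%) and 3 lower (8.11%), against 13.5% and 17.5% of all tested genes. The 7 were CTSF, CTSH, CTSK, CTSO and CTSV, all cysteine cathepsins, with SMPD1, the acid sphingomyelinase, and AGA, which cleaves asparagine-linked glycans. Other proteases of the list were not called, with log2FC values of -0.82 for CTSC, 0.51 for CTSS, 0.79 for LGMN and 0.53 for TPP1. CTSK fell under 2-fold without DMSO replicate 1 (0.99) or NCD replicate 3 (0.90). CTSO had 5.73, 5.83 and 6.19 CPM with DMSO and 32.0, 28.4 and 31.7 CPM with NCD (log2FC 2.37, SE 0.10, adjusted p = 8.92e-08 in edgeR's quasi-likelihood test). CTSV had 16.3, 13.3 and 15.2 CPM with DMSO and 61.0, 60.6 and 53.1 CPM with NCD (log2FC 1.96, SE 0.10, adjusted p = 2.95e-07). The 3 called lower were ARSB, a sulfatase that acts on dermatan sulfate, MANBA, the β-mannosidase, and SUMF1, the enzyme that activates all sulfatases. ARSB went from 31.6, 35.0 and 37.2 CPM to 4.94, 4.97 and 5.04 CPM (log2FC -2.80, SE 0.10, adjusted p = 4.45e-08), and SUMF1 from 26.5, 24.8 and 24.0 CPM to 4.46, 4.14 and 3.45 CPM (log2FC -2.64, SE 0.12, adjusted p = 1.43e-07). Of the 16 other membrane proteins LAMP3 alone was called (6.25%), where 31.0% of all tested genes were called in either direction. LAMP3 went from 6.57, 6.73 and 5.76 CPM to 27.1, 27.9 and 26.4 CPM (log2FC 2.10, SE 0.10, adjusted p = 1.84e-07 in edgeR's quasi-likelihood test). Of the 16 other V-ATPase subunits tested, ATP6V1E2 alone was called (6.25%, against the same 31.0%), with a log2FC of 1.09. Without DMSO replicate 1 it stood at 0.95. With library totals ATP6AP1, ATP6V0B, ATP6V0C and ATP6V1F joined it.

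mTORC1, the kinase complex that represses autophagy from the lysosomal surface, had genes in both directions. Of the 28 genes of the complex and its regulators, 5 were called higher (17.9%) and 4 lower (14.3%). At 2-fold these shares were near the 13.5% and 17.5% of all tested genes. At any fold 17 of the 28 were higher (60.7%) and 7 lower (25.0%), against 35.3% and 34.1% of all tested genes. RPTOR, the subunit that binds substrates, had 52.3, 52.3 and 49.8 CPM with DMSO and 8.21, 8.38 and 7.69 CPM with NCD. It was 6.35-fold lower (log2FC -2.67, SE 0.08, adjusted p = 2.3e-08 in edgeR's quasi-likelihood test). MTOR, the kinase, was also lower (log2FC -1.29, adjusted p = 3.96e-06), and so were FNIP1 and FNIP2, partners of FLCN in the GTPase-activating complex for RRAGC (log2FC -1.36 and -1.02). FNIP2 lost its call with library totals (-0.82), with the replicate number as a block, and when DMSO replicate 2 or NCD replicate 1 or 2 was left out. All 4 genes span over 100 kb.

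The mTORC1 regulators called higher were SESN2, SESN3, RRAGC, FLCN and DEPTOR. SESN2, a leucine sensor induced by stress that inhibits mTORC1, had 8.08, 7.47 and 6.63 CPM with DMSO and 43.6, 42.3 and 41.8 CPM with NCD (5.76-fold, log2FC 2.53, SE 0.09, adjusted p = 5.36e-08 in edgeR's quasi-likelihood test). RRAGC, a Rag GTPase that recruits mTORC1 to the lysosome, had 46.4, 48.2 and 42.3 CPM with DMSO and 130, 124.5 and 132 CPM with NCD (2.82-fold, SE of the log2FC 0.07, adjusted p = 1.65e-07). SESN3 and FLCN had log2FC values of 1.64 and 1.10. DEPTOR had 4 to 20 counts per library, and its log2FC of 1.02 (adjusted p = 0.0391) no longer passed with DESeq2, with the ribosomal reference, without the filter on low counts, or when DMSO replicate 1 or 2 or NCD replicate 2 or 3 was left out.

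**Figure D5:**
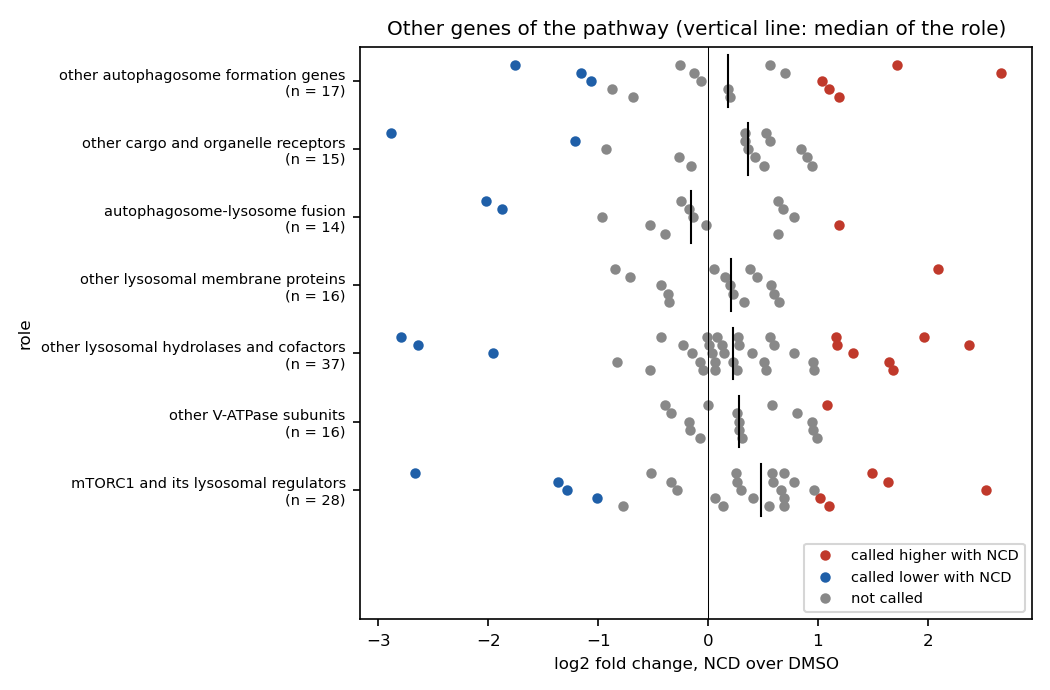
Points are the 143 tested genes of the wider list at their log2 fold change, NCD over DMSO (horizontal axis), in 7 roles (vertical axis), with a vertical line at the median of each role. Genes called in both directions occur in 4 of the 7 roles, and the medians lie between -0.16 for fusion genes and 0.48 for mTORC1 and its regulators.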

How the data were processed

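RNA-seq libraries of MDA-MB-231 cells (3 with DMSO and 3 with NCD) were analysed from the deposited expected counts. The authors made these expected counts per Ensembl gene with RSEM, after alignment with HISAT2 to GRCh38, and each library was deposited on its own without normalization. The annotation release and the use of strand in counting are not given in the sources used here. In each file 25 lines of stray text held no gene and were skipped.

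The values were rounded to integers and tested with edgeR 4.0.16 in R 4.3.3, with filterByExpr, TMM factors (0.912 to 0.949 with DMSO, 1.06 to 1.09 with NCD), glmQLFit and glmQLFTest, and p-values were adjusted by the Benjamini-Hochberg method over all 15295 tested genes. Genes were called differentially expressed when |log2FC| exceeded 1 and the adjusted p was below 0.05. Standard errors are the absolute log2 fold change over the square root of F. The steps were tested on simulated data in which a small part of the genes changed, as many up as down, each by over 2-fold. In the real data 69.3% of tested genes passed at any fold, so the simulation does not bear on scaling or on small changes. CPM values use TMM-scaled library sizes, and the SD is over libraries. Spans, exon lengths and coordinates came from GENCODE release 29 (GRCh38), which holds 58228 of the 63241 identifiers and may not be the authors' release. Symbols were found for 62666.

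The members and lists were chosen with earlier results of these data known. All 48 genes are named, with values in every library for the differentially expressed ones, the TFEB family and the ATG8 proteins. Of the wider list, the 5 called higher and the 5 called lower with the smallest adjusted p and a mean of at least 5 CPM are named, with every called gene that a count of 5 or fewer refers to. Other wider-list genes named with values were chosen after those values were seen. Alternatives were DESeq2 1.42.0, limma-voom (limma 3.58.1), library totals, ribosomal protein genes as reference, no filter, at least 10 counts in every library, a block for the replicate number, and leaving out 1 library at a time. Python 3.11.15, pandas 2.3.3 and numpy 2.4.6 were used.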

Additional observations from a re-analysis of the deposited data

How the results depend on the processing

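The 13 differentially expressed genes of the list numbered 12 to 15 under all alternatives, with 6 lower in each and 7 higher in each but 2. These were 9 higher with library totals, where CTSL and GLA passed 2-fold, and 6 without DMSO replicate 3, where MCOLN1 stood at 0.99. The list's median log2FC of 0.199 was 0.179 with DESeq2, 0.396 with library totals and 0.177 with ribosomal protein genes as the scale, and ranged from 0.156 to 0.203 with 1 library left out. At any fold the 34 genes became 42 with library totals and 28 on the ribosomal scale. Pairing by replicate number was not supported, since the correlations of the deviations of same-numbered libraries were 0.216, -0.185 and 0.0226. In the fit with a replicate block, 13 genes of the list and 33 of the wider list (34 without the block) were called, and FNIP2 lost its call, at -0.998.

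Small changes changed sign under some settings, none of them past the adjusted p in any setting that reversed it except LAMP2. With library totals the log2 fold changes were 0.0763 for BECN1, 0.16 for ATG4A, 0.19 for LAMP2 (adjusted p = 0.0162) and 0.0631 for ATP6V1A. WIPI1 was at -0.0084 with DESeq2, -0.0036 with the ribosomal reference and -0.0055 with at least 10 counts, ATG3 at -0.017, -0.0133 and -0.0138 in the same order, and CTSD at -0.0017 with the ribosomal reference. With 1 library left out, the ranges were -0.0284 to 0.0151 for WIPI1, -0.0689 to 0.0306 for ATG3, -0.159 to 0.0035 for ATG4A, -0.0268 to 0.0916 for GABARAPL2, -0.0681 to 0.0168 for LAMP2 and -0.0282 to 0.0693 for CTSD. In the wider list WDR45 (0.96 to 1.09) and CTSK (0.90 to 1.37) fell under 2-fold without some libraries, and VMP1 stood at -0.87 with library totals. At this depth genes with few counts, such as TFEB and ATG10, were measured with standard errors of 0.26 and 0.34.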

Other observations

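The E-box CACGTG was also counted in promoters of the wider list, the other genes of autophagy, the lysosome and mTORC1. Of the 104 tested genes with a window, 20 held CACGTG, and 2 of these were differentially expressed and higher with NCD (CTSF, a cysteine cathepsin, and RRAGC, a Rag GTPase) while 3 were lower (SUMF1, BNIP3 and FNIP1). Among the 84 without it, 11 were higher and 7 were lower. At any fold 10 of the 20 rose and 5 fell, and 42 of the 84 rose and 21 fell. The longer TCACGTGA was present in 7 genes, RRAGB, TSC2, ATP6V1G1, GALNS, NRBF2, VPS11 and CLN3, of which 4 rose and 0 fell at any fold, and 0 were differentially expressed. Of the 97 wider-list genes without TCACGTGA, 48 rose and 26 fell at any fold. Over all 211 tested genes with TCACGTGA, 44.5% were higher and 31.8% lower at any fold. These are counts over genes, with no test of the difference.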
